A study of Homo sapiens with 6 samples.

Results

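Small nuclear, nucleolar and microRNA genes were described in A549 cells, an established human lung epithelial cancer cell line. They were selected on their read sum: genes typed snRNA, snoRNA, scaRNA, miRNA or misc_RNA in the deposited table with at least 120 reads over the 6 libraries. Of the 1073 genes of these types 42 met that minimum, out of 29845 genes listed in all. Their abundance is therefore a description, whereas the difference between the groups was not used. The cells had been transfected either with the empty pIRES-hrGFP-1a plasmid (control, 3 libraries) or with the same plasmid carrying FLAG-tagged TFAM (TFAM-OE, 3 libraries), so both groups carried a plasmid. TFAM is the mitochondrial transcription factor A, which packages mitochondrial DNA and takes part in regulating its transcription. The study called the 3 libraries of a group biological replicates, and the labels do not say whether they were separate cultures, so p-values measure the spread between these libraries. RNA with a poly(A) tail was selected and fragmented before paired-end sequencing.

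The 6 libraries held between 26650854 and 37321956 counted reads. The 5 gene types together took between 0.0343% and 0.0604% of them, and the 42 genes held 90.7% of the reads of their types. TFAM itself was at 71.1, 77.3 and 84.1 CPM (the read count normalised to library depth, after TMM scaling) in the TFAM-OE libraries and at 76.0, 70.4 and 72.6 CPM in the controls, groups that overlapped (log2 fold change 0.09, SE 0.10, adjusted p = 0.605). The counts of this gene therefore did not separate the groups, and the libraries are named by their labels. The study reported the overexpression at the protein level, by western blot against the FLAG tag, which these counts do not measure. All 6 epithelial markers had reads in every library (5534 to 6459 CPM in all, mostly keratins, with EPCAM at 9 to 32 reads), and the markers of other cell types summed to between 2.56 and 5.36 CPM, of which COL1A1 gave most, PTPRC had 1 read in all, and 2 of 8 had no row. In bulk RNA, fewer cells of a type and less RNA per cell cannot be told apart.

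As background, snoRNAs guide chemical modification of other RNAs in the nucleolus. Box C/D snoRNAs guide ribose methylation and box H/ACA snoRNAs guide pseudouridylation, mainly of ribosomal RNA. In human cells most are cut out of introns of host genes that also make ribosomal proteins or other products. The scaRNAs do the same for spliceosomal snRNAs in Cajal bodies. A miRNA is trimmed from a hairpin and pairs with messenger RNA through the seed near its 5′ end. The misc_RNA genes include 7SL, the RNA of the signal recognition particle that brings ribosomes to the endoplasmic reticulum, and 7SK, which holds the elongation factor P-TEFb inactive. The mature forms of nearly all of these RNAs lack the poly(A) tail on which the libraries were selected.

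The miRNA type gave 21 of the 42 genes, the snoRNA type 17 and the misc_RNA type 4. No gene typed snRNA reached the minimum (119 genes, 512 reads in all, at most 41 reads for U4), and none typed scaRNA did (16 genes, 282 reads, at most 83). The last gene inside the limit was SNORA6 with 122 reads, followed by SNORD22 with 127 and SNORD16 with 129, and just outside were SNORD32A with 116, SNORD68 with 115 and SNORD104 with 115.

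For 5 of the miRNA genes RefSeq (GRCh38.p14) gives a mature sequence. They are shown with the seed, bases 2 to 8, in capitals, because these are the letters that would act in a cell if the reads came from the mature RNA, and the 5 seeds all differ.
MIR1282: uCGUUUGCcuuuuucugcuu
MIR3661: uGACCUGGgacucggacagcug
MIR762: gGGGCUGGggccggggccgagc
MIR3615: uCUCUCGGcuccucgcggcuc
MIR5047: uUGCAGCUgcgguuguaaggu
These are 20 to 22 bases long, whereas the counted features were longer. Dividing read counts by FPKM (fragments per kilobase of gene length, scaled to library depth), after a common factor of 1.18 set on 26 genes of known length, gave features of 49 to 699 bases, and 34 of the 42 were shorter than the 150-nt reads. Whether a read came from a mature RNA, its precursor or an overlapping transcript cannot be told from these counts, which are reads over the gene.

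The snoRNA genes all had a position in GENCODE version 44 (GRCh38). Their ends hold the boxes that name the families: box C is TGATGA near the 5′ end, box D is CTGA near the 3′ end and the H/ACA family has ACA close to the 3′ end. The first or last 30 bases of 5 of them are shown, on the strand of the gene, with the box in capitals, for genes that are set beside their hosts below.
SNORD17, first bases: gtgaaaTGATGAttcagtttatccattcgc
SNORD17, last bases: cacaaagatgagtggtgaaaatCTGAtcac
SNORD23, first bases: tgcccagTGATGAcaccatccttgctcccc
SNORD23, last bases: agtggggccaatgcccaggggCTGAgggca
SNORD22, last bases: atttgttccagaaggaactgtCTGAgggat
SNORA61, last bases: atatggcatgtgggctagtttcagACAggt
SNORA18, last bases: agatctgtgggaaggaattacaagACAgtt
On the gene strand, TGATGA was found in the first 30 bases of SNORD17, SCARNA12, SNORD96A and SNORD23, and CTGA in the last 30 bases of those 4 genes and of SNORD86, SNORD35B, SNORD35A, SNORD16 and SNORD22. ACA stood 3 bases from the end in SNORA70, SNORA10, SNORA64, SNORA18, SNORA61 and SNORA6. In SNORA40 and SNORD3A none of the 3 exact sequences was found in these places. The annotated SNORD3A gene is 699 bases long, and boxes further inside a gene were not searched for, so this does not show that a box is absent. Of all 938 annotated snoRNA genes, 28.8% hold TGATGA, 51.0% hold CTGA and 29.7% hold ACA in these places, against 0.640%, 16.1% and 1.17% of windows of the same length upstream. SCARNA12 is typed as a snoRNA in the deposited table although its name places it with the Cajal body RNAs.

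Among all 14976 genes with at least 120 reads, edgeR's quasi-likelihood test called 2.44% at an adjusted p under 0.05 and a fold change of at least 2 in either direction, 0.427% higher and 2.02% lower in TFAM-OE. Of the small RNA genes 1 of 42 was called, which is 2.38% and near that background. It was FP671120.4, a miRNA gene, and it was higher. No snoRNA and no misc_RNA gene was called, and with the adjusted p alone the count was again 1 of 42, against 8.88% of all genes in either direction (3.84% higher and 5.04% lower). At an unadjusted p under 0.05 there were 3 genes, FP671120.4, FP671120.7 and MIR762.

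The groups did not overlap for 8 of the 42, all of them higher in TFAM-OE (FP671120.4, MIR762, MIR3615, SNORD17, SNORA40, SNORA61, SNORD22 and SNORD35A), against 33.3% of all genes in either direction and 17.1% in that direction. The median log2 fold change was 0.07 for the 42 genes, 0.05 for the miRNA type, 0.21 for the snoRNA type and -0.23 for the misc_RNA type, beside -0.0025 for all genes tested. Of the 17 snoRNA genes, 13 had a positive value and 4 a negative one, and none passed the test (edgeR adjusted p between 0.225 and 0.981).

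**Figure D1:**
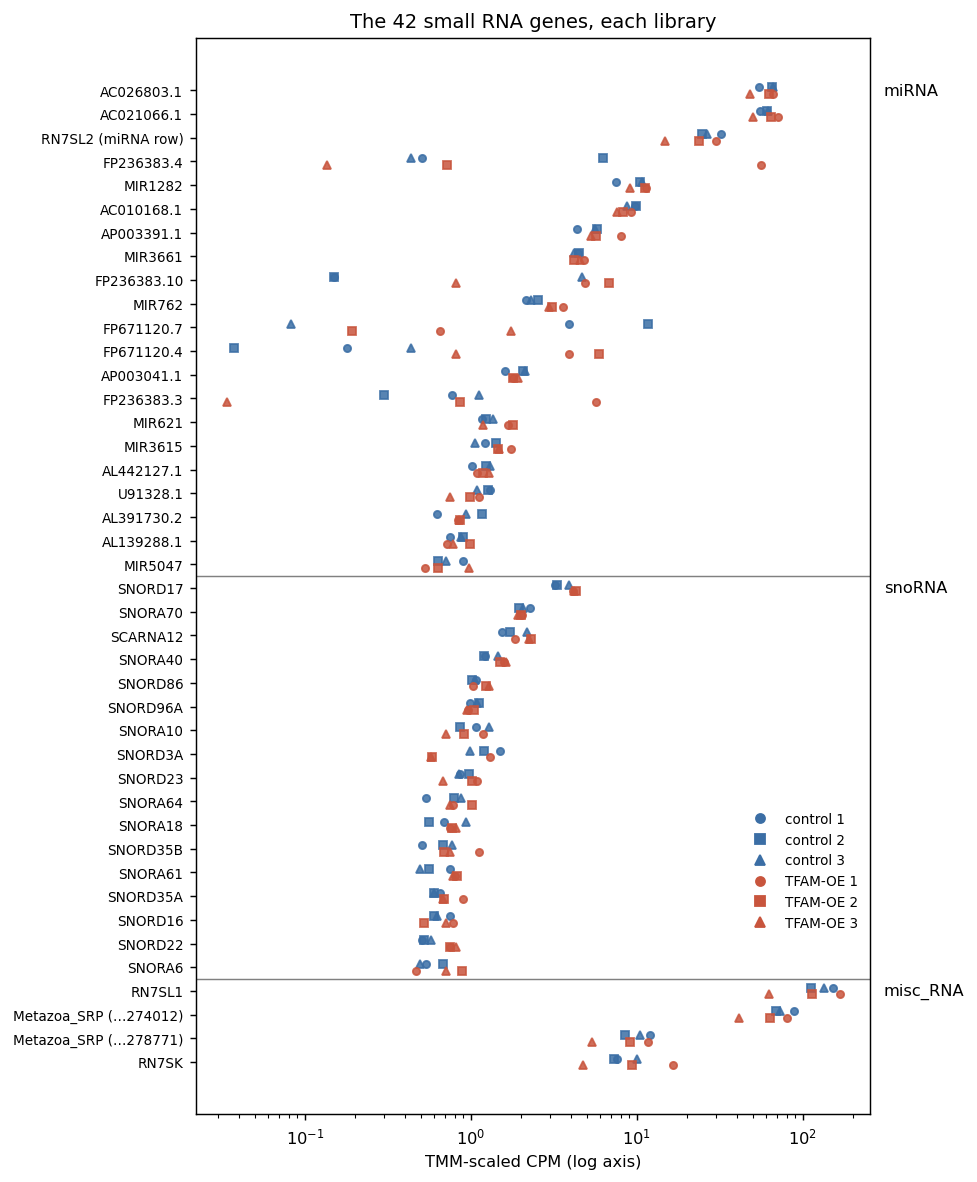
Abundance of each of the 42 small RNA genes in each library, as TMM-scaled CPM on a log axis, by gene type and in order of total reads. Blue marks are the 3 control libraries and red marks the 3 TFAM-OE libraries. Most genes keep their libraries close together, whereas the 5 genes named FP236383 or FP671120 are spread over more than 1 order of magnitude.

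Summed by type, the reads of the 17 snoRNA genes were the most even. They made up 19.3, 18.3 and 19.8 CPM of all counted reads, without TMM scaling, in the controls and 20.6, 20.7 and 20.7 in TFAM-OE. The groups did not overlap for this sum, but they did over all 254 rows of the snoRNA type. The 21 miRNA genes came to 191, 212 and 198 CPM of all counted reads in the controls against 273, 203 and 160, and the 4 misc_RNA genes to 269, 197 and 223 against 265, 192 and 118, so in both types the TFAM-OE libraries spread further than the controls and the groups overlapped. Over all rows of a type, snRNA genes were at 3.23 ± 0.945 CPM of all counted reads in the controls (SD, n = 3) and 2.01 ± 0.234 in TFAM-OE, and scaRNA genes at 1.12 ± 0.178 and 1.76 ± 0.151, with groups that did not overlap in either type and fewer than 150 reads per library. Of single genes tested, 33.3% had groups that did not overlap, and no such share was computed for sums of genes.

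Other RNAs that mostly lack a long poly(A) tail are given beside these. Replication-dependent histone genes (67 rows), whose RNA has no such tail, made up 368, 278 and 241 CPM of all counted reads in the controls and 206, 188 and 161 in TFAM-OE. The 2 mitochondrial ribosomal RNAs, which carry short A tails, were at 5655 to 5906 CPM of all counted reads in the controls and at 8525 to 10064 in TFAM-OE, and genes typed rRNA had at most 12 reads in a library. Histone RNA was thus lower and mitochondrial ribosomal RNA higher in all 3 TFAM-OE libraries, while the snoRNA genes moved by less than either. The part of the selection in these results was not tested.

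The largest departures came from 5 miRNA genes of chromosome 21 that carry clone names. The deposited table gives them a chromosome but no position, and none of their identifiers is in GENCODE version 44, so no sequence or host gene is given. In control 1, 2 and 3 and then TFAM-OE 1, 2 and 3, FP236383.4 had 17, 166, 16, 1801, 26 and 4 reads. FP236383.10 had 5, 4, 171, 156, 245 and 24 reads. FP671120.7 had 131, 310, 3, 21, 7 and 52 reads. Each of these 3 genes varied widely within both groups, and the highest library was a different one for each. FP671120.4 had 6, 1, 16, 125, 214 and 24 reads, and FP236383.3 had 26, 8, 41, 183, 31 and 1. FP671120.4 was the only one of the 5 whose groups did not overlap.

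In 4 of the 5, 1 library had more reads than the other 5 together: TFAM-OE 1 for FP236383.4 (88.7% of its reads) and FP236383.3 (63.1%), control 2 for FP671120.7 (59.2%) and TFAM-OE 2 for FP671120.4 (55.4%). No other small RNA gene did so, and among all genes tested 0.0868% did (13 of 14976). The biological coefficient of variation that edgeR estimated, the spread between replicates relative to the mean, lay between 0.557 and 1.24 for the 5 genes and above the 99.9th percentile of all genes. For the other 37 it was at most 0.312.

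FP671120.4 was 15.0-fold higher in TFAM-OE, with a 95% interval of 4.48 to 50.4 (log2 fold change 3.91, SE 0.77, edgeR adjusted p = 0.0183). It was called in 12 of 17 alternative fits, and the call was lost, among others, without control 1 (adjusted p = 0.109), without control 2 (0.0935), without TFAM-OE 2 (0.0604) and with limma-voom (0.0503), whereas its log2 fold change stayed between 3.32 and 4.90 in all 17. The log2 fold change was 3.06 for FP236383.4 (SE 1.64, adjusted p = 0.266) and -2.60 for FP671120.7 (SE 1.12, 0.176). It was 1.27 for FP236383.10 (SE 1.01, 0.453) and 1.53 for FP236383.3 (SE 1.01, 0.366). Leaving out a single library moved FP236383.4, FP671120.7, FP236383.10 and FP236383.3 past the adjusted p. It changed the sign only for FP236383.4 and FP236383.3. Without TFAM-OE 3, the edgeR adjusted p was 0.0329 for FP236383.4, 0.0404 for FP671120.7 and 0.0269 for FP236383.3, without control 3 it was 0.0341 for both FP236383.10 and FP671120.7, and without TFAM-OE 1 the log2 fold change of FP236383.4 was -2.35 and that of FP236383.3 was -0.68.

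The 5 genes shared some features. By FPKM, FP236383.4 and FP671120.7 both had a length of 49 bases, FP671120.4 and FP236383.3 both had 56 and FP236383.10 had 57. Whether they are near-identical copies that split reads was not tested, so they were also summed before the fit. The sum was 185, 489 and 247 reads in the controls and 2286, 523 and 105 in TFAM-OE, and TFAM-OE 1 held 59.6% of it. Summed, the log2 fold change was 1.55 (SE 0.87, edgeR adjusted p = 0.284), -0.15 without TFAM-OE 1 (0.880) and 2.10 without TFAM-OE 3 (0.0151). Relative to all counted reads the sum was 5.70, 18.3 and 6.62 CPM in the controls and 68.1, 14.2 and 3.65 in TFAM-OE, so TFAM-OE 1 was the highest library, control 2 came next and TFAM-OE 3 was the lowest.

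**Figure D2:**
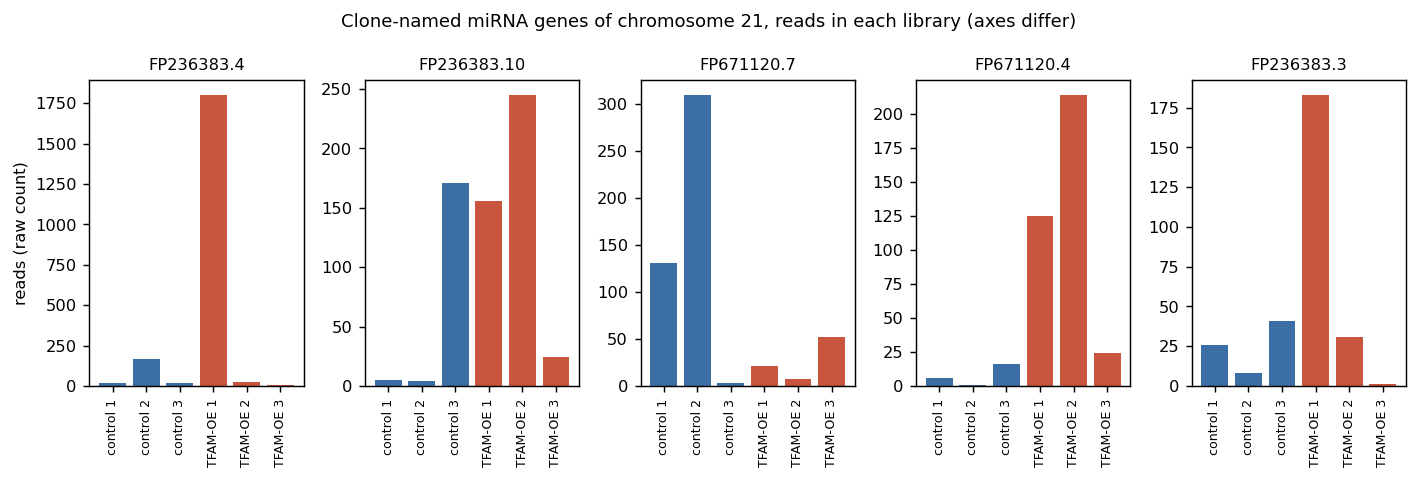
Raw read counts of the 5 clone-named miRNA genes of chromosome 21 in each library, 1 panel per gene, each with its own axis from 0. Blue bars are controls and red bars TFAM-OE. TFAM-OE 1 is the highest library for FP236383.4 and FP236383.3, TFAM-OE 2 for FP236383.10 and FP671120.4, and control 2 for FP671120.7.

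The other 16 miRNA genes had a median log2 fold change of -0.01 and ranged from -0.36 to 0.47. The most abundant were AC026803.1, on chromosome 19, and AC021066.1, on chromosome 12. AC026803.1 was at 54.6, 65.1 and 66.0 CPM in the controls and 66.0, 62.6 and 48.1 in TFAM-OE (log2 fold change -0.07, SE 0.14, adjusted p = 0.777). AC021066.1 was at 55.2, 60.7 and 61.5 CPM against 70.6, 64.1 and 49.8 (0.06, SE 0.13, 0.820). The groups overlapped for both genes, with TFAM-OE 3 the lowest library of each. With 82 and 133 bases by FPKM, they had no position to place them in a gene.

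For 5 miRNA genes the hairpin was placed, and all 5 overlapped an exon of another gene. MIR5047, whose mature sequence is given above, was not among them and was not set beside other genes. MIR1282 (chr15:43793659-43793759, minus strand) lay wholly in coding sequence of SERF2, on the opposite strand. MIR3661 (chr5:134225757-134225852, plus strand) had 93 of its 96 bases in coding sequence of PPP2CA, the catalytic subunit of protein phosphatase 2A, also on the opposite strand. MIR762 (chr16:30893903-30893985, plus strand) lay in an exon of BCL7C on the opposite strand, with 42 bases of coding sequence. MIR621 (chr13:40810766-40810861, plus strand) lay in a noncoding stretch of an exon of SLC25A15, a mitochondrial ornithine carrier, on the same strand. MIR3615 (chr17:74748613-74748699, plus strand) had 72 of 87 bases in an exon of NHERF1, a scaffold protein of the cell membrane, on the same strand, and all 87 in an exon of SLC9A3R1-AS1 on the other.

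The setting for strand in the counting is not given in the sources used here, and reads of a gene and of its antisense partner cannot be told apart. Per length, in FPKM, MIR1282 was at 118% to 139% of SERF2 over the 6 libraries, MIR3661 at 126% to 139% of PPP2CA, MIR621 at 94.0% to 141% of SLC25A15 and MIR762 at 180% to 248% of BCL7C. MIR3615 was at 46.7% to 60.8% of NHERF1. The groups overlapped in each of these ratios to a gene with an exon over the hairpin, and also in those of MIR3661 to ENSG00000272772 (49.2% to 58.3%) and of MIR3615 to SLC9A3R1-AS1 (267% to 391%). MIR762 and MIR3661 also each lay inside another fitted gene without touching its exons, and there the ratios did not overlap. MIR1282 lay in this way in ENSG00000262560 (19 reads in all) and MIR762 in ENSG00000262721 (1 read), which were under the minimum and given no ratio. MIR762 was at 1388% to 1734% of MIR762HG, a noncoding gene on its own strand, in the controls and at 2207% to 2639% in TFAM-OE. MIR3661 was at 2843% to 5071% of ENSG00000273345, on the opposite strand, in the controls and at 6311% to 8231% in TFAM-OE. ENSG00000273345 had only 59, 38 and 34 reads in the controls and 21, 26 and 24 in TFAM-OE, so this ratio rests on few reads.

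The differences between groups are set beside those of the gene with the exon. MIR762 was at 2.14, 2.55 and 2.29 CPM in the controls and 3.60, 3.08 and 2.97 in TFAM-OE (log2 fold change 0.47, SE 0.17, adjusted p = 0.115), and BCL7C had 0.57 (SE 0.14, 0.0433). Both had groups that did not overlap, and BCL7C, a subunit of SWI/SNF chromatin remodelling complexes, passed the adjusted p but not the fold. MIR3615 had a log2 fold change of 0.34 beside 0.26 for NHERF1. The values were 0.31 for MIR621 and 0.49 for SLC25A15, 0.15 for MIR1282 and 0.22 for SERF2, and 0.05 for MIR3661 and 0.02 for PPP2CA. In each of these 5 pairs the signs were the same, and the miRNA gene differed from the other gene by between -0.18 (MIR621) and 0.08 (MIR3615) on the log2 scale. The fitted genes that held a hairpin outside their exons differed more from it, with log2 fold changes of -0.10 for MIR762HG (SE 0.19, adjusted p = 0.782) and -0.91 for ENSG00000273345 (SE 0.29, 0.0816).

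Of the 17 snoRNA genes, 16 lay within a host gene on the same strand, in 14 hosts, and 7 of these pairs were in 6 genes of ribosomal proteins. In 15 pairs the snoRNA gene lay within an exon of some annotated transcript of the host, but in 1 only, SNORA10 in RPS2, of a coding transcript, so for the others the coding transcripts of the host splice it out or the host is noncoding. The FPKM of the snoRNA gene was between 0.155% of its host (SNORA64 in RPS2) and 159% (SNORA40 in TAF1D), as medians over the libraries. Most of these snoRNA genes were also shorter than the 150-nt reads, and the effect of this on their FPKM was not tested. The sign of the log2 fold change was the same as in the host in 6 of 16 pairs. Across the 16 pairs Pearson's r between both values was -0.448, a description over genes of the same libraries in which 2 hosts each contribute a pair of snoRNAs.

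The clearest contrast was in noncoding hosts. SNORD22 (chr11:62852910-62853035, minus strand) lies in SNHG1, a spliced noncoding RNA whose introns hold several snoRNAs. SNORD22 was at 0.506, 0.525 and 0.573 CPM in the controls and 0.745, 0.743 and 0.810 in TFAM-OE (log2 fold change 0.51, SE 0.25, adjusted p = 0.225). SNHG1 was at 105, 92.4 and 98.5 CPM against 65.6, 55.2 and 47.8 (-0.81, SE 0.12, 0.00639). The host fell by the adjusted p, whereas the snoRNA gene had no lower value in any TFAM-OE library than in any control. SNORA61 (chr1:28579764-28579893, minus strand), in the noncoding host SNHG12 (typed antisense in the table), was at 0.744, 0.562 and 0.491 CPM against 0.807, 0.826 and 0.776 (0.42, SE 0.26, 0.339), beside 11.2, 9.14 and 8.35 against 5.74, 4.87 and 5.64 for SNHG12 (-0.82, SE 0.16, 0.0156). These are 15 to 30 reads per library for SNORA61 and 14 to 27 for SNORD22, so counting error alone is wide.

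TAF1D, a subunit of the RNA polymerase I factor SL1, holds SNORA40 (chr11:93735111-93735236) and SNORA18 (chr11:93733466-93733597), both on the minus strand. TAF1D was at 23.9, 18.1 and 16.5 CPM in the controls and 9.71, 14.3 and 12.9 in TFAM-OE (log2 fold change -0.67, SE 0.18, adjusted p = 0.0549). SNORA40 was at 1.22, 1.20 and 1.45 CPM against 1.58, 1.49 and 1.62 (0.27, SE 0.20, 0.408), and SNORA18 had a log2 fold change of 0.08 (SE 0.27, 0.887). The host had its 3 lowest values in TFAM-OE, and SNORA40 its 3 highest.

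SNORD17 (chr20:17962710-17962946, minus strand) was the most abundant snoRNA gene and the only one of the 16 in no exon of its host, SNX5, a sorting nexin of endosomes. It was at 3.21, 3.30 and 3.87 CPM in the controls and 4.13, 4.32 and 4.15 in TFAM-OE (log2 fold change 0.28, SE 0.15, adjusted p = 0.271), beside -0.26 for SNX5 (SE 0.10, 0.144). SNORA70 in RPL10 was at 2.26, 1.95 and 2.05 CPM against 2.02, 2.01 and 1.92 (-0.07, SE 0.17, 0.824), and SCARNA12 in PHB2 at 1.55, 1.72 and 2.18 against 1.83, 2.29 and 2.23 (0.21, SE 0.21, 0.543). The groups overlapped for the latter pair of genes.

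**Figure D3:**
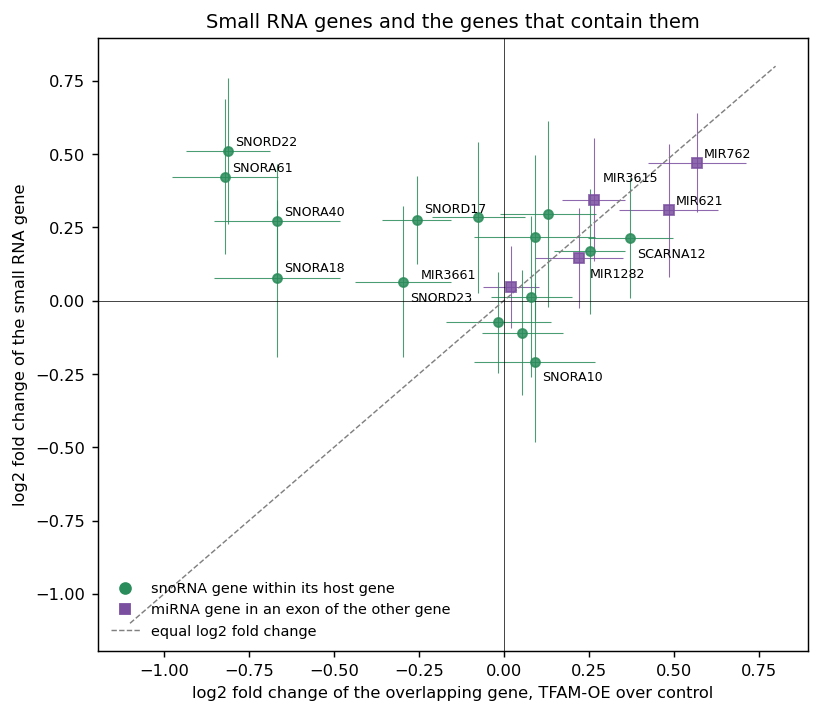
Log2 fold change, TFAM-OE over control, of 15 snoRNA genes (circles) and 5 miRNA genes (squares) against that of the gene they lie in, with bars of 1 SE. The squares lie near the dashed line of equal change, whereas SNORD22, SNORA61, SNORA40 and SNORA18 lie to the upper left, with hosts between -0.82 and -0.67 and their own values between 0.08 and 0.51.

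The ratio of snoRNA to host was higher in every TFAM-OE library than in any control for 5 of 16 pairs and lower for 0. The host had a negative log2 fold change in all 5, and no such share was computed for other pairs of genes. In their own counts, 17.1% of all genes were higher in TFAM-OE without overlap. SNORD22 was at 6.05%, 7.12% and 7.30% of the FPKM of SNHG1 in the controls and at 14.3%, 16.9% and 21.3% in TFAM-OE. SNORA61 was at 78.1 ± 4.90% of SNHG12 (SD, n = 3) against 187 ± 21.6%, and SNORA40 at 113 ± 30.6% of TAF1D against 217 ± 49.1%. SNORD17 was at 25.7 ± 4.91% of SNX5 against 36.7 ± 1.15%, and SNORD23 (chr19:47755853-47755962, plus strand) at 2.86 ± 0.257% of NOP53, a ribosome biogenesis factor, against 3.61 ± 0.204%. For each of the 5 the two-sided exact permutation p of the log ratio was 0.1, the smallest that 3 against 3 libraries can give, and 0.32 after Benjamini-Hochberg adjustment over the 16 pairs. Groups that do not overlap always give this smallest p, so the test adds nothing to the separation by which the 5 were picked. The ratio of a fallen host carries the fall of the host, so these values are not separate from those above.

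In the ribosomal protein hosts the ratios were low and the groups overlapped. SNORD35A was at 0.213% to 0.335% of RPL13A. SNORA64 and SNORA10 in RPS2, SNORD16 in RPL4, SNORA6 in RPSA and SNORA70 in RPL10 were at between 0.124% and 2.11%. The log2 fold changes of these 5 hosts lay between -0.08 and 0.13 and those of their 6 snoRNA genes between -0.21 and 0.30, none past the adjusted p.

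**Figure D4:**
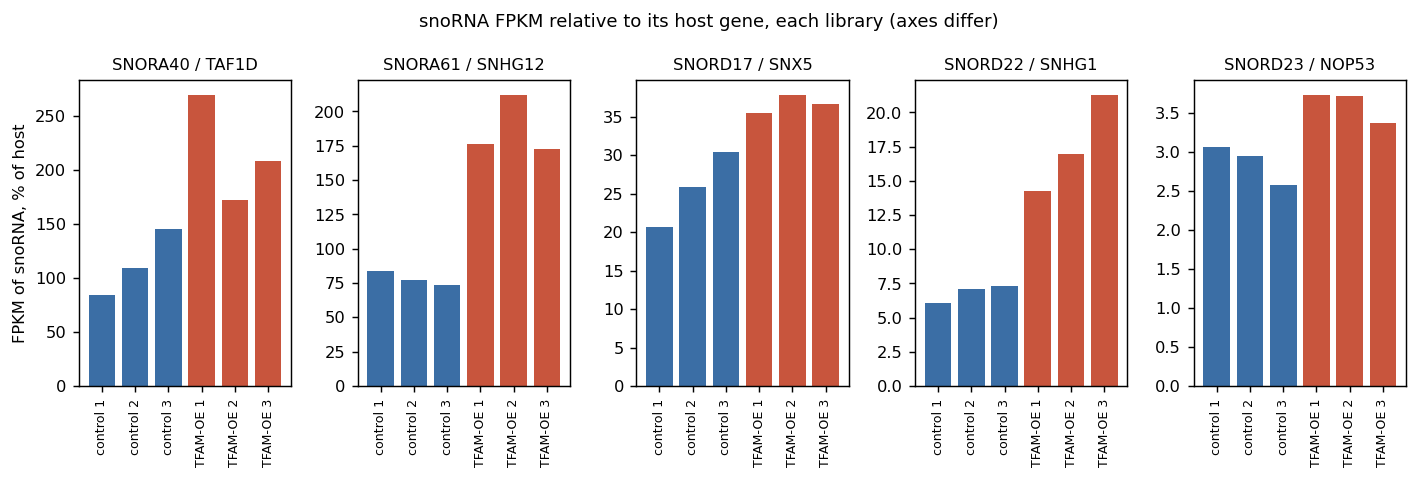
FPKM of a snoRNA gene as a percent of the FPKM of its host gene in each library, for the 5 pairs whose groups did not overlap, 1 panel per pair with its own axis from 0. Blue bars are controls and red bars TFAM-OE. All 3 red bars stand above all 3 blue bars in each panel.

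SNORD3A, the U3 snoRNA that acts in cleavage of the ribosomal RNA precursor, had its own gene (chr17:19188016-19188714, plus strand) and no host. It had the most negative log2 fold change of the snoRNA genes. It was at 1.49, 1.20 and 0.982 CPM in the controls and 1.30, 0.578 and 0.574 in TFAM-OE, with overlapping groups (log2 fold change -0.58, SE 0.35, adjusted p = 0.326). TFAM-OE 1 was the high one, and without it the value was -1.08 and the adjusted p 0.0436.

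The 4 misc_RNA genes comprised RN7SK and 3 copies of 7SL on chromosome 14, the latter RN7SL1 (chr14:49586580-49586878, plus strand) and a pair listed as Metazoa_SRP, which GENCODE version 44 names RN7SL2 (chr14:49862550-49862849, minus strand) and RN7SL3 (chr14:49853616-49853914, minus strand). Over their whole length RN7SL1 was 98.3% identical to RN7SL2 and 97.7% to RN7SL3, and the last pair was 96.0% identical. A row that the deposited table calls RN7SL2 and types as miRNA had another identifier, absent from version 44, and a length of 80 bases.

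RN7SL1 was at 152, 113 and 134 CPM in the controls and 166, 114 and 62.8 in TFAM-OE (log2 fold change -0.21, SE 0.28, adjusted p = 0.672). The GENCODE RN7SL2 gene was at 88.7, 68.6 and 72.9 CPM against 80.8, 63.1 and 41.3 (-0.31, SE 0.21, 0.378). In each of the 4 rows TFAM-OE 3 was lowest. The 4 rows moved together: RN7SL1 held 50.5% to 57.6% of their summed reads, the GENCODE RN7SL2 gene 28.0% to 33.2%, the row typed miRNA 10.4% to 11.9% and RN7SL3 3.97% to 4.33%. The split between such near-identical copies is uncertain, and the row typed miRNA had no sequence to compare, so the 4 rows were also summed. The sum was 295, 215 and 239 CPM of all counted reads in the controls and 277, 206 and 128 in TFAM-OE, with a log2 fold change of -0.25 (SE 0.26, edgeR adjusted p = 0.563), -0.57 without TFAM-OE 1 (0.0577) and 0.02 without TFAM-OE 3 (0.934). The difference was within the spread between the libraries.

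RN7SK (chr6:52995620-52995950, plus strand) was at 7.61, 7.27 and 9.96 CPM in the controls and 16.6, 9.28 and 4.76 in TFAM-OE (log2 fold change 0.30, SE 0.36, adjusted p = 0.640). TFAM-OE held both its highest and its lowest library. Other noncoding RNAs that the table types as lincRNA or antisense, and that are therefore outside the 42, had the TFAM-OE libraries in the same order. RMRP, the RNA of RNase MRP, was at 7.53, 5.10 and 7.64 CPM against 14.3, 9.61 and 4.02 (0.46, SE 0.38, 0.464), and RPPH1, the RNA of RNase P, at 8.54 to 12.5 against 22.8, 13.8 and 6.28 (0.46, SE 0.37, 0.460). For all 3 RNAs TFAM-OE 1 was the highest library and TFAM-OE 3 the lowest, on both sides of the controls.

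**Figure D5:**
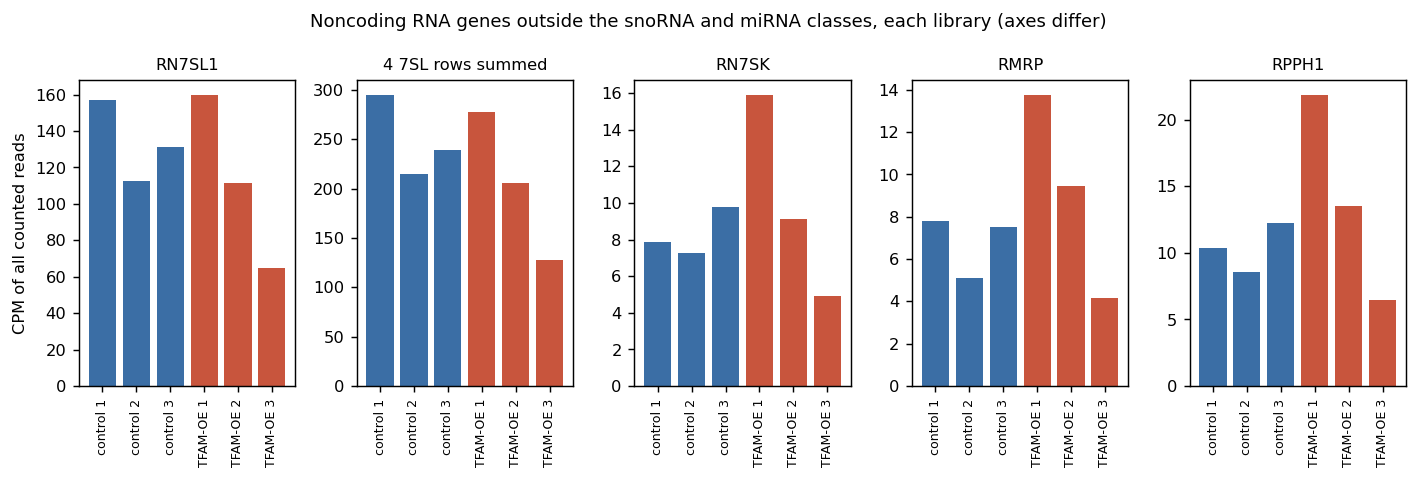
Abundance in each library, as CPM of all counted reads, of RN7SL1, the 4 rows of 7SL summed, RN7SK, RMRP and RPPH1, 1 panel each with its own axis from 0. Blue bars are controls and red bars TFAM-OE. TFAM-OE 3 is the lowest library in every panel, and TFAM-OE 1 is the highest for RN7SL1, RN7SK, RMRP and RPPH1.

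The proteins that bind or process these RNAs were read from lists in the same fit. None of the 16 proteins of snoRNP particles and their assembly passed the adjusted p, with fibrillarin (FBL), the methyltransferase of box C/D particles, at 0.21 and dyskerin (DKC1), the pseudouridine synthase of H/ACA particles, at -0.03. None of the 7 proteins of the 7SK particle, the 15 of miRNA processing or the 9 tested of RNase P and MRP passed either. Of 36 spliceosomal snRNP proteins, SNRNP70 (log2 fold change 0.42) and SF3A2 (0.43) were higher and PRPF3 (-0.40) was lower, and of 30 genes for snRNA transcription, export and Cajal bodies INTS11 was higher (0.49) and DDX20 lower (-0.47). SRP68 was lower (-0.36) among 6 signal recognition particle proteins, and TEP1 (-0.71) among 5 Ro, La and vault proteins. None of these 7 reached the fold. Over all genes tested 8.88% passed the adjusted p, and 3 of 36 snRNP proteins is near that share.

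Noncoding host genes of snoRNAs formed the list with the most genes past the adjusted p. Of 21 tested, 8 were lower past the adjusted p and 0 higher, where 5.04% of all genes were lower, and their median log2 fold change was -0.28. ZFAS1 was called (-1.08), and GAS5 (-0.98), SNHG12 (-0.82), SNHG1 (-0.81), EPB41L4A-AS1 (-0.65), SNHG20 (-0.56), SNHG8 (-0.55) and SNHG6 (-0.44) passed the adjusted p alone. The list was drawn up with earlier results of these data known. Of these 8, only SNHG1 and SNHG12 host a snoRNA gene that reached 120 reads in total.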

How the data were processed

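RNA of A549 cells was sequenced in 6 libraries, grouped by their labels. The authors trimmed and aligned reads to GRCh38 with TopHat2 and counted uniquely mapped reads. The authors deposited raw read counts per gene and FPKM values with 2 decimals. The sources used here do not give the counting program, annotation or strand setting. The members and gene lists were chosen with earlier results of these data known.

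All 14976 genes with at least 120 reads were fitted with edgeR (4.0.16, R 4.3.3) by TMM scaling and the quasi-likelihood test, two-sided, 3 against 3, with Benjamini-Hochberg adjustment over all genes. Calls needed an adjusted p under 0.05 together with a fold of 2 or more, or of 0.5 or less. The fit was tested on simulated counts. Alternatives used limma (3.58.1), DESeq2 (1.42.0), other scalings and filters, and left out each library. Summing of near-identical rows and the permutation test of the ratio to the host gene (scipy 1.17.1) were added after the values were seen. Named genes were those called, the 3 with most reads in each type, those dominated by 1 library, those at the minimum and a list of structural RNAs. Genes described with their hosts were added after their values were seen. RefSeq gave miRNA sequences and the position of MIR3615, and GENCODE (44) the other positions. Replicate numbers did not pair the libraries, so no block was used in the reported fit. Reads carry no molecular identifiers, so totals of 26650854 to 37321956 bound counting error only. A fold change on the log2 scale is TFAM-OE over control. Some results for 1 host gene and some sequences are not reported here.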

Additional observations from a re-analysis of the deposited data

How the results depend on the processing

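Of the small RNA genes 1 was called in the reported fit, and 366 of all genes. With all genes of at least 1 read in the fit, where the estimated spread was shrunk to the common trend, 5 small RNA genes (those of the chromosome 21 clones) and 657 of all genes were called. With limma-voom 0 small RNA genes were called, and DESeq2, edgeR's exact test, robust fitting, filterByExpr, RLE, upper quartile or no scaling and limma-trend on log2(FPKM + 0.1) each called 1. Leaving out each library in turn gave 0 to 4 small RNA genes and 192 to 466 of all genes. The adjusted p alone gave 1330 of all genes. With the replicate block, 0 small RNA genes and 219 of all genes were called, and FP671120.4 had an adjusted p of 0.104. The correlations of deviations in same-numbered libraries were -0.285, -0.0104 and -0.346, and no library correlated best with its own number. The log2 ratio of the snoRNA share of reads, 0.11 in TFAM-OE over control, was 0.065 with no minimum of reads. Among the other values, 710 kept their side of the threshold, 11 crossed to pass it and 5 crossed to miss it, and no called value changed sign. The cause of these changes was not tested. Low depth limits the snoRNA genes, such as SNORD22 with 14 to 27 reads in a library.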

Other observations

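SCARNA13, SCARNA9 and SCARNA2, Cajal body RNAs outside the 42 genes, had few reads. SCARNA13 had 3, 11 and 8 reads in the controls and 21, 22 and 18 in TFAM-OE. SCARNA9, typed as antisense in the table, had 1, 4 and 9 against 22, 21 and 20, and SCARNA2 had 4, 3 and 4 against 11, 8 and 1. The groups did not overlap for SCARNA13 and SCARNA9, both higher in TFAM-OE, and did for SCARNA2, whose lowest library was TFAM-OE 3. Of all genes tested, 17.1% were higher in TFAM-OE without overlap. The groups of SCARNA12, which is among the 42, overlapped (edgeR adjusted p = 0.543). SCARNA13, SCARNA9 and SCARNA2 were under the minimum of 120 reads and were not in the fit. TERC, the RNA of telomerase, typed as lincRNA and itself an H/ACA RNA, was at 0.387, 1.24 and 1.17 CPM in the controls and 2.42, 2.18 and 1.38 in TFAM-OE (log2 fold change 1.11, SE 0.39, edgeR adjusted p = 0.104).

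SNORA73B had 13, 10 and 24 reads in the controls and 25, 19 and 12 in TFAM-OE, and VTRNA1-1, a vault RNA, had 3 reads in all. Of further miRNA genes named for the chromosome 21 clones, FP236383.12 had 22 reads, all in TFAM-OE 1, and FP671120.6 had 13, of which 12 were in TFAM-OE 1. FP236383.5 had 10, 4 and 6 reads against 20, 18 and 8, FP236383.7 had 3 reads in all and FP236383.9 had 1.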
